A study of Mus musculus with 10 samples.

Results

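Sox and Klf transcription factors set how readily retinal ganglion cells (RGCs), the projection neurons whose axons form the optic nerve, can grow an axon. The group described here is 9 such genes, Sox11, Sox4, Sox12, Klf4, Klf6, Klf7, Klf9, Klf10 and Klf13, chosen by gene symbol. They are 9 of the 34254 genes in the deposited tables, and 9 of 9 were among the 14234 genes with enough counts to be tested. By the roles known for them, Sox11, Klf6 and Klf7 were grouped as promoting axon growth, Klf4, Klf9 and Klf13 as limiting it, and Sox4, Sox12 and Klf10 were given no direction.

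Single RGCs were profiled by droplet RNA sequencing from wild-type 129S1/SvImJ mice of both sexes, 12 weeks old, either uninjured or 2 weeks after optic nerve crush (ONC), which severs RGC axons behind the eye. Cells from batches of 10 pooled retinas were depleted of macrophages and captured by panning on Thy1, a surface protein of RGCs, and the series text adds a fluorescence sort. There are 6 libraries of uninjured RGCs (1683 cells) and 4 of injured RGCs (1609 cells, or 1188 when the barcodes that injured 3 and 4 share are counted once). The injured number differs from the one in the paper. The paper and the submitters' notes differ on the reagent kit, the sequencer, the Cell Ranger version and whether amacrine cells were also depleted, and the files do not settle these points.

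Total unique molecular identifiers (UMIs, 1 per captured RNA molecule) per library ran from 2839693 to 23180399 in uninjured and from 4698799 to 8860536 in injured RGCs. Depth per cell was lower after injury, with library medians of 20437 to 34337 UMIs a cell for uninjured and 11257 to 14695 for injured RGCs. Injured 3 and 4 hold 998 cells. Of their 577 distinct cell barcodes, 421 occur in both libraries, whereas any other pair has at most 1 in common, so injured 3 and 4 were averaged to 1 sample, written injured 3/4, which leaves 6 uninjured against 3 injured samples. UMIs of mCherry, a reporter protein that the labels do not mention, were present in 7.99% of injured 1, 15.0% of injured 2, 86.0% of injured 3 and 84.3% of injured 4 cells, and in 0% of uninjured cells. Xist, the RNA of the inactive X chromosome, gave UMIs in 62.1% of injured 1 and 67.4% of injured 2 cells, while the highest share elsewhere was 0.569%. The labels give both sexes for each library, but Xist cells were nearly absent from the uninjured libraries and from injured 3 and 4, so sex is not balanced between the conditions. No label says that libraries come from separate animals, and uninjured 1 and 2, 3 and 4, 5 and 6, and injured 1 and 2 resemble each other more than other pairs do, so p-values measure spread between samples that may be technical.

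SoxC factors (Sox4, Sox11 and Sox12) bind DNA through a high-mobility-group domain and act in neuron differentiation and early axon growth, and Sox11 given back to adult RGCs drives axon regeneration in some RGC types. Krüppel-like factors bind GC-rich and CACCC elements through zinc fingers, and members of the family push neurite growth in opposite directions: Klf6 and Klf7 raise it, while Klf4, Klf9 and Klf13 hold it back. Klf9 is also a classic early gene of thyroid and glucocorticoid hormones, and Klf10 was found as a gene induced by TGF-beta.

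The comparison asks how ONC alters the levels of these factors in RGCs. After ONC 5 members rose (Sox11, Klf6, Klf7, Klf9 and Klf4), 3 fell (Sox4, Sox12 and Klf10), and Klf13 did not pass the test, which was an adjusted p under 0.05 in a fit across all tested genes with edgeR. That is 8 of 9 members, where the same test called 44.0% of all tested genes, 21.3% as higher (5 of 9 members) and 22.7% as lower (3 of 9). On the CPM scale (UMIs of a gene per 1000000 UMIs), the injured samples lay wholly above or wholly below the uninjured samples for 9 of 9 members, against 42.9% of tested genes. The median log2 fold change was 0.60 over the members and -0.03 over all tested genes. Klf4 passed the filter on low counts through the injured samples alone and could hardly have been called lower. Without it, 7 of 8 members passed, 4 higher and 3 lower, with a median of 0.40, and the conditions were apart in CPM for 8 of 8. By role, 3 of 3 growth-promoting members rose (median 2.28) and 3 of 3 members with no assigned direction fell (median -1.28). This split depends on the grouping, which was made with earlier results of these data known. Sox4 and Sox12, which fell, are SoxC factors that act in early axon growth, as Sox11 is. Of the growth-limiting members other than Klf4, Klf9 rose and Klf13 did not pass. With injured 3 and 4 left out, 8 of 9 members passed, and 8 of 9 passed in injured 1 and 2 alone with mCherry-positive cells removed, a setting chosen after seeing the data. With the libraries that resemble each other summed, 6 members passed (not Sox12, Klf9 or Klf13), and 7 passed with them as a random block (not Sox12 or Klf13). Without Xist cells 6 passed, with Sox12 and Klf13 not called and Klf4 not tested. With cells restricted to 3 to 5% Malat1 UMIs, a range that both conditions hold, 495 uninjured and 260 injured cells remained, only 7 and 8 of them in uninjured 5 and 6. In these cells 5 members passed (Sox11, Sox4, Klf6, Klf7 and Klf9) and Klf4 had too few counts to be tested.

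**Figure D1:**
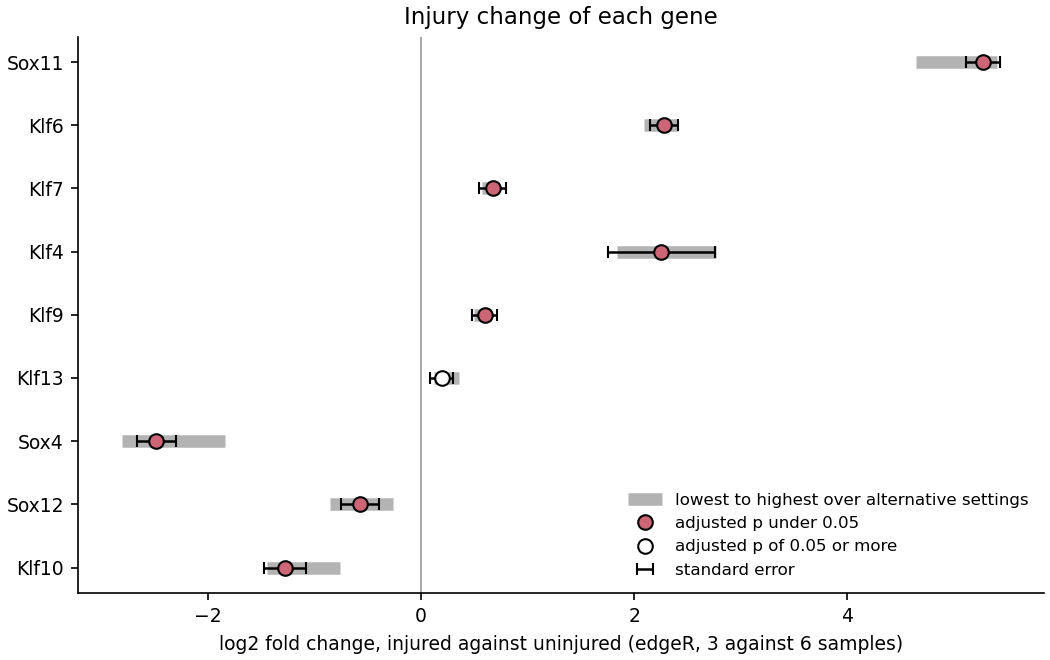
Log2 fold change (injured against uninjured, x axis) of the 9 members from edgeR over 6 uninjured and 3 injured samples, with standard errors as black bars, the range over alternative settings as grey bars and filled points for members that passed the test. Sox11 lies farthest to the right at 5.27, Sox4 farthest to the left at -2.49, and Klf13 at 0.19 did not pass.

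**Figure D2:**
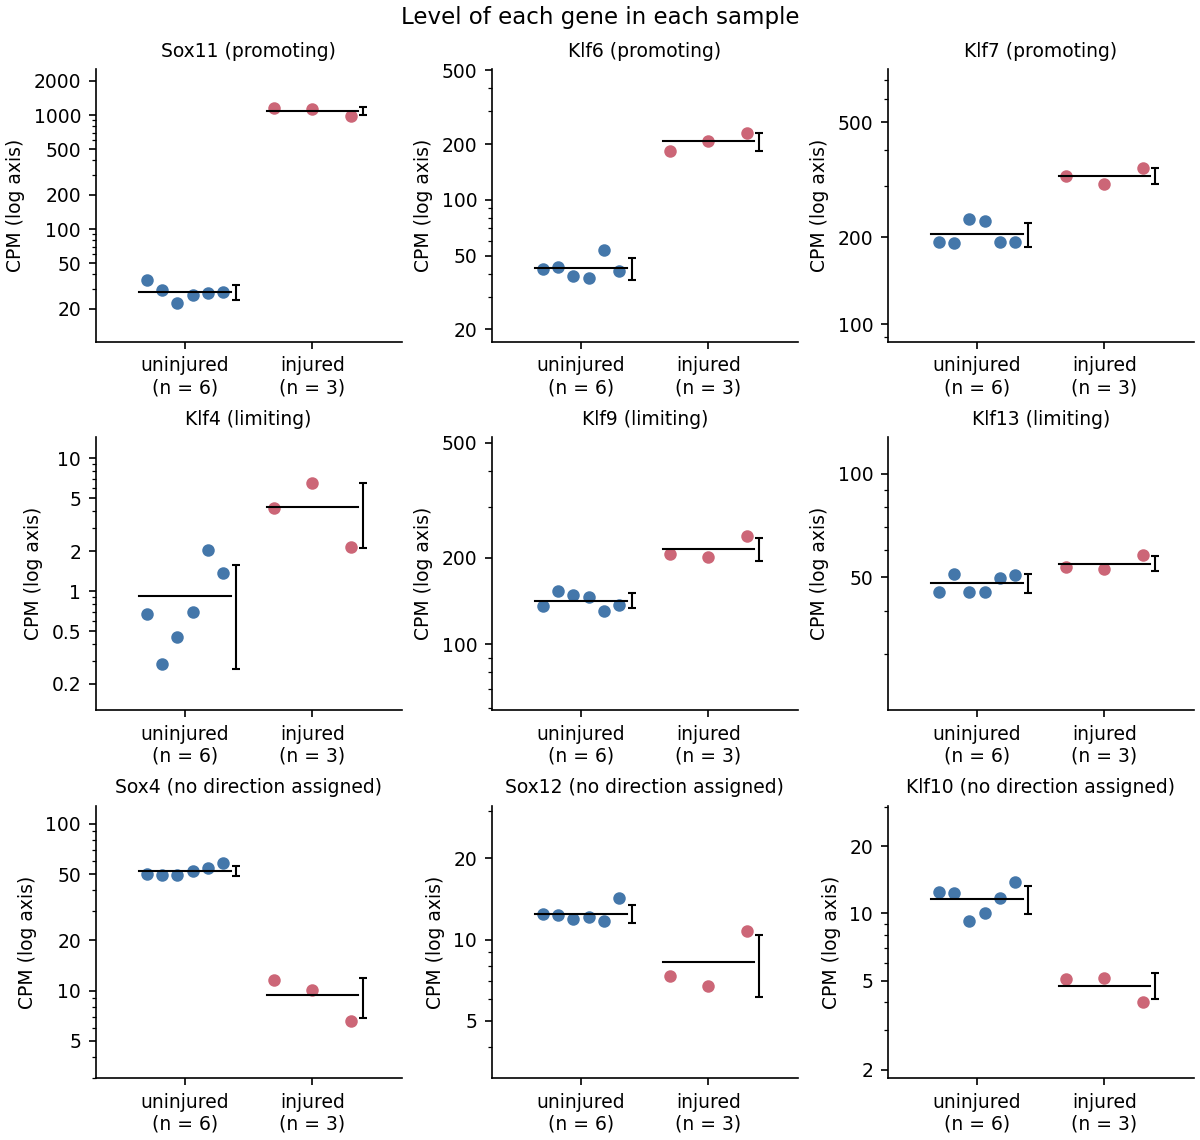
CPM of each member in each sample (log axis), with 1 point a sample, injured 3/4 as 1 point, lines at the means and bars of 1 SD. The injured points sit apart from the uninjured points in each panel, from 986 to 1145 CPM against 22.6 to 35.7 for Sox11, and by a narrow gap for Klf13.

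The start sites of Sox11, Klf6 and Sox4 are shown because these members carry the 3 largest changes in either direction. Each sequence runs from 250 bases before to 49 bases after the first base of the main GENCODE transcript, read 5′ to 3′ on the gene's strand from GRCm39. The windows are chr12:27392524-27392823 on the minus strand for Sox11, chr13:5911231-5911530 on the plus strand for Klf6 and chr13:29137647-29137946 on the minus strand for Sox4. RefSeq places the start 144 bases upstream of this one for Sox11, 7 downstream for Klf6 and 14 downstream for Sox4. For Klf7 and Klf9 it lies 164 and 403 bases downstream, beyond the end of their windows, so the element counts below hold for the GENCODE starts only. Capitals mark matches, on either strand, to the Klf and Sp elements GGGCGG and CACCC, to the AP-1 element TGANTCA, to the cAMP response element TGACGTCA, and to the Sox elements ACAAAG and ACAATG.
Sox11: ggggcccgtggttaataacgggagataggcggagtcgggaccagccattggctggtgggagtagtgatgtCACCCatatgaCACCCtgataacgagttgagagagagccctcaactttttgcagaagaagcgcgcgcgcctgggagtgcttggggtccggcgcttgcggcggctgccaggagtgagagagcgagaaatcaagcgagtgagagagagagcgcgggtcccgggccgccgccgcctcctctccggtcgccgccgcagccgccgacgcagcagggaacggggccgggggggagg
Klf6: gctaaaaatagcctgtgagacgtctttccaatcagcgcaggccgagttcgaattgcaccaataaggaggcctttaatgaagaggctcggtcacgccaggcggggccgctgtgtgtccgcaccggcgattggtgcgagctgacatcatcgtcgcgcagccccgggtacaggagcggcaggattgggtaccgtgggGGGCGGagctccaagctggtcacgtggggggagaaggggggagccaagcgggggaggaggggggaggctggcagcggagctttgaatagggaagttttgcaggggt
Sox4: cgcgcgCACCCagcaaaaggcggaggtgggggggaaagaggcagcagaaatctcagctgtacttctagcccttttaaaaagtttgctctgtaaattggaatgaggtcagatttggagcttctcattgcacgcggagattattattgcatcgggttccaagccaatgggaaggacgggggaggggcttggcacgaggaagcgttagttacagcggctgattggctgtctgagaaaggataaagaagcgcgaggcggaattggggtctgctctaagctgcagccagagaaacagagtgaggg
The Sox11 window holds 2 copies of CACCC, the Sox4 window 1 and the Klf6 window 1 copy of GGGCGG. Of the 9 members' windows, 6 hold GGGCGG (Sox12, Klf4, Klf13, Klf7, Klf10 and Klf6) and 5 hold CACCC (Sox11, Klf7, Sox4, Klf9 and Klf13). Among 21770 promoters of protein-coding genes of the same length, 42.5% hold GGGCGG and 58.7% hold CACCC. The AP-1 element TGANTCA (7.14% of all promoters), the cAMP element TGACGTCA (2.44%) and the Sox element ACAAAG (18.2%) have no match in the members' windows, and ACAATG (10.8%) has 1, in Klf13. GC content is 66.3% for Sox11, 62.7% for Klf6 and 53.0% for Sox4, beside a median of 54.3% over all promoters. A match describes letters in the window and says nothing about whether a factor binds there.

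Sox11, a SoxC activator of neuronal growth genes, was the member with the largest change. Its level in uninjured samples was 22.6 CPM at the lowest, 27.9 at the median and 35.7 at the highest, and 1145, 1119 and 986 CPM in injured 1, injured 2 and injured 3/4. The lowest injured sample was far above the highest uninjured sample, and the injured samples were close to one another. Sox11 rose 38.7-fold, a log2 fold change of 5.27 (SE 0.16; edgeR adjusted p = 1.85e-09; higher in 3 of 3 injured samples than in any uninjured sample), rank 139 from the top of 14234 genes. Counts behind this were 104 to 636 UMIs in each uninjured and 4981 to 7346 in each injured sample. Without injured 3 and 4 the log2 fold change was 5.36 (SE 0.17; edgeR adjusted p = 3.42e-08). Over 30 alternative settings edgeR and the other tools gave adjusted p from 4.97e-267 to 1.31e-05. The gene (chr12:27384263-27392573, minus strand, GRCm39) is a single exon with no intron and overlaps no other annotated gene, so its UMIs cannot be intronic.

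Klf6, a zinc finger factor that promotes axon growth and is also an early response gene in injured liver, rose as well. It was at 37.6, 41.8 and 53.5 CPM (lowest, median, highest) in uninjured samples and at 183, 207 and 230 CPM in the 3 injured samples. There was no overlap, although uninjured 5 stood above the other uninjured samples. The change was 4.86-fold, or 2.28 on the log2 scale (SE 0.13; edgeR adjusted p = 1.59e-07; 3 of 3 injured samples higher). Klf6 lies on chr13:5911481-5920393 (plus strand, 4 exons) with no overlapping gene.

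Klf7, the closest relative of Klf6 in the group and a neuronal factor needed for axon growth in development, changed less. Uninjured samples held 190.9, 192.2 and 231 CPM (lowest, median, highest), and the injured samples 326, 305 and 346 CPM. Uninjured 3 and 4 were the high ones of their group and were still below the injured samples. The rise was 1.59-fold (log2 fold change 0.67, SE 0.13; edgeR adjusted p = 0.00118; 3 of 3 injured samples higher). Klf7 (chr1:64068606-64161508, minus strand, 4 exons) has 84383 intronic bases, and the deposited counts do not separate intronic from exonic UMIs.

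Klf9, a repressor of neurite growth, rose together with the promoters of growth. Its uninjured levels were 130.3, 141.7 and 152.8 CPM (lowest, median, highest), and its injured levels 206, 201 and 238 CPM. Injured 3/4, whose cells mostly carry mCherry, was the highest sample, and no uninjured sample reached the injured range. Klf9 rose 1.52-fold (log2 fold change 0.60, SE 0.12; edgeR adjusted p = 0.0014; 3 of 3 injured samples higher). It no longer passed when the libraries that resemble each other were summed (0.63, SE 0.21; edgeR adjusted p = 0.0521, the highest of 30 settings, where DESeq2 gave the lowest adjusted p, 2.3e-09). Klf9 lies on chr19:23118187-23148497 (plus strand, 2 exons).

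Klf4, a reprogramming factor that suppresses axon regrowth of RGCs, was present at few counts. Uninjured samples held 0.280, 0.686 and 2.02 CPM (lowest, median, highest; 1 to 17 UMIs each) and injured samples 4.20, 6.51 and 2.15 CPM (16 to 29 UMIs each). Injured 3/4 lay just above the highest uninjured sample, so the separation is narrow. The log2 fold change was 2.25 (SE 0.50; edgeR adjusted p = 0.00339; 3 of 3 injured samples higher). Klf4 passed the filter on low counts through the injured samples, 3 of 3 of which exceeded 1.76 CPM against 1 of 6 uninjured samples, so its call could hardly have gone the other way. It lies on chr4:55527139-55532528 (minus strand, 5 exons).

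Klf13, which limits neurite growth and represses cAMP signalling, was at 45.3, 47.7 and 51.3 CPM (lowest, median, highest) in uninjured and at 53.6, 53.0 and 58.0 CPM in injured samples. The injured samples were higher by a small step, and with library totals as the only scaling the conditions overlapped. The log2 fold change was 0.19 (SE 0.11; edgeR adjusted p = 0.172; 3 of 3 injured samples higher) and did not pass the test. Over 30 settings the estimate stayed between 0.13 and 0.36 and passed in 3. The lowest edgeR adjusted p was 0.0289, in libraries 1 to 4 of each condition, and it was 0.045 there with replicate number as a block. Both of these settings count injured 3 and 4 as separate samples although they share cells. The third was limma-voom with quality weights (adjusted p = 0.0455). Klf13 (chr7:63536099-63588663, minus strand, 2 exons) has 46169 intronic bases.

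Sox4, the SoxC relative of Sox11 with which it shares targets and a role in RGC development, moved in the opposite direction. It was at 49.3, 50.9 and 58.5 CPM (lowest, median, highest) in uninjured samples and at 11.6, 10.1 and 6.58 CPM in injured samples. The uninjured samples were tightly grouped, and each injured sample was far below them. Sox4 fell by 2.49 on the log2 scale (SE 0.18; edgeR adjusted p = 8.48e-07; lower in 3 of 3 injured samples), 5.60-fold lower and rank 424 from the bottom of all tested genes. Counts were 148 to 1264 UMIs in each uninjured and 45 to 66 in each injured sample. Without injured 3 and 4 the change was -2.24 (SE 0.16; edgeR adjusted p = 4.45e-06), and over 30 settings edgeR and the other tools gave adjusted p from 1.58e-38 to 0.000332. The gene (chr13:29132902-29137696, minus strand) is a single exon with no intron, and A330102I10Rik, a long noncoding RNA that is also in the tables, overlaps it on the other strand. Gm61652, another long noncoding RNA, spans the whole gene on the same strand and is not in the tables, so whether UMIs counted as Sox4 come from it cannot be told apart.

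Sox12, the least studied SoxC factor, was at 11.8, 12.2 and 14.3 CPM (lowest, median, highest) in uninjured and at 7.35, 6.74 and 10.7 CPM in injured samples. The injured samples were lower, with injured 3/4 close to the uninjured range. Sox12 fell by 0.57 on the log2 scale (SE 0.18; edgeR adjusted p = 0.0224; lower in 3 of 3 injured samples). This call rests on single libraries: without injured 1 the change was -0.48 (edgeR adjusted p = 0.105) and without injured 2 it was -0.45 (edgeR adjusted p = 0.107). Over 30 settings edgeR and the other tools gave adjusted p from 0.00165 to 0.598, and 8 of the 30 ended the call. Sox12 lies on chr2:152235531-152239983 (minus strand) as a single exon.

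Klf10, an early TGF-beta response factor, was at 9.25, 12.05 and 13.8 CPM (lowest, median, highest) in uninjured samples and at 5.08, 5.16 and 4.03 CPM in injured samples. The conditions were apart in each sample. Klf10 fell by 1.28 on the log2 scale (SE 0.20; edgeR adjusted p = 0.00029; lower in 3 of 3 injured samples). It did not pass in cells with 3 to 5% Malat1 UMIs (-0.76, SE 0.33; edgeR adjusted p = 0.0848, the highest of 30 settings, where DESeq2 gave the lowest adjusted p, 3.99e-06). Klf10 lies on chr15:38291703-38300959 (minus strand, 4 exons).

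RNA composition moved with injury beside these changes. Ribosomal protein genes took 2.48 to 4.45% of the UMIs of the median uninjured cell and 5.23 to 6.00% of the median injured cell, and mitochondrial genes 2.84 to 5.63% and 1.48 to 3.15%. Malat1, a nuclear RNA, took 1.72 to 4.88% of the UMIs of uninjured and 6.09 to 8.01% of injured libraries. The part of RNA quality in the members' changes was tested only through the settings on ribosomal, mitochondrial and Malat1 shares. No member tested in them changed direction, but with 3 to 5% Malat1 Klf4 could not be tested, and Sox12 (-0.26; edgeR adjusted p = 0.598) and Klf10 (-0.76) lost their calls.

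How many cells carry each factor was read after each cell was thinned to 8610 UMIs, since injured cells were shallower, which kept 1649 uninjured and 1313 injured cells. The background for such shares is taken from Sag, the arrestin of rods, picked after values were seen because it was the most abundant rod marker listed below. It was found in 0 to 3.57% of thinned uninjured and 0.563 to 3.35% of thinned injured cells (5.83 to 8.60% and 1.48 to 4.396% as deposited, at the median depths given above). Sox11 UMIs were present in 18.5, 21.4 and 26.3% (lowest, median, highest) of thinned uninjured cells and in 98.0, 95.4 and 96.1% of the cells of the 3 injured samples. Almost every injured cell thus carried Sox11, and the uninjured share was well above the Sag background. At the deposited depth the shares were 38.6 to 56.1% and 96.1 to 98.2%.

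Sox4 showed the reverse: 26.5, 34.2 and 35.6% (lowest, median, highest) of thinned uninjured cells held a UMI, against 5.42, 5.86 and 4.64% in the injured samples. At the deposited depth these shares were 54.7 to 70.5% and 7.49 to 12.8%. Klf6 UMIs went from 21.6, 28.8 and 35.7% of thinned uninjured cells to 72.5, 75.3 and 77.5% in the injured samples, and from 52.2 to 65.0% up to 85.2 to 87.5% as deposited. For Sox11, Sox4 and Klf6 the conditions did not overlap at either of these depths. Klf10 was in 6.72 to 13.7% of thinned uninjured and 2.73 to 3.77% of thinned injured cells, the latter close to the top of the Sag background (18.7 to 34.0% and 4.73 to 7.10% as deposited). Klf4 was in 0 to 0.500% of thinned uninjured and 1.80 to 3.05% of thinned injured cells, neither above the Sag range, so which cells make Klf4 cannot be read from these shares (0.971 to 3.00% and 2.89 to 5.49% as deposited, where the conditions overlap).

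For the other members the shares of cells overlapped between the conditions once depth was made equal, and their differences were not tested. The mean Klf9 share was still 8.83 percentage points higher in thinned injured than in thinned uninjured cells. Klf7 was in 76.5 to 85.2% of thinned uninjured and 81.2 to 86.8% of thinned injured cells, Klf9 in 61.5 to 78.4% and 75.3 to 81.8%. Klf13 was in 27.0 to 35.3% and 32.2 to 38.0%, and Sox12 in 7.84 to 14.0% and 6.78 to 7.95%, with overlap for each of the 4. As deposited, the shares were 91.8 to 98.2% and 88.5 to 91.4% for Klf7, 86.1 to 98.1% and 86.4 to 87.8% for Klf9. They were 60.2 to 79.6% and 50.3 to 51.8% for Klf13, and 22.1 to 34.1% and 9.16 to 13.9% for Sox12. For Klf7, Klf9 and Klf13 the deposited shares point down while CPM does not, and no order is read from them.

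**Figure D3:**
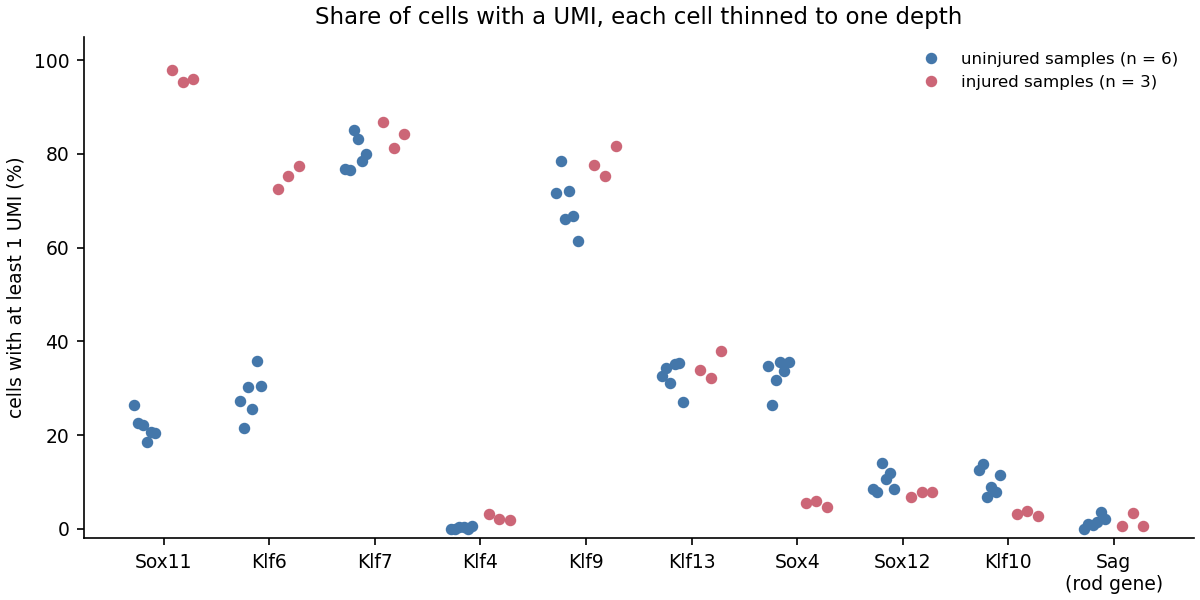
Percent of cells with at least 1 UMI of each member (y axis) in each sample, after thinning to 8610 UMIs a cell, with 1 point a sample. Sox11 goes from 18.5 to 26.3% of uninjured cells to 95.4 to 98.0% of injured cells, Sox4 from 26.5 to 35.6% down to 4.64 to 5.86%, and Klf7, Klf9, Klf13 and Sox12 overlap.

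Joint shares give how often UMIs of several factors were found in the same cell. They were not compared with the shares that the single genes would give alone. Doublets, droplets with 2 cells, were not called, and their part in these shares was not tested. UMIs of all 3 growth promoters, Sox11, Klf6 and Klf7, were found together in 2.11 to 6.16% of thinned uninjured and 60.3 to 64.4% of thinned injured cells. Sox11 together with the growth-limiting Klf9 was in 12.0 to 17.6% of uninjured and 71.5 to 78.2% of injured cells, so most Sox11-positive injured cells also held a Klf9 UMI. Sox4 without Sox11 was found in 20.6 to 29.5% of uninjured cells and 0.418 to 0.973% of injured cells, the latter no higher than the Sag background. Cells with neither Sox11 nor Sox4 made up 48.4 to 56.9% of uninjured and 1.36 to 4.18% of injured cells.

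The amount of Sox11 per cell was spread widely. Thinned injured cells held a mean of 9.69, 9.28 and 8.53 Sox11 UMIs in the 3 samples, against 0.235 to 0.304 in uninjured samples. The cell with the most had 36 UMIs among injured and 6 among uninjured cells. Between 36.8 and 40.4% of injured cells held 5 to 9 UMIs, 30.7 to 41.0% held 10 to 19, and 4.60 to 7.12% held at least 20, a range that no uninjured cell reached. The variance over cells was 3.56, 3.21 and 3.65 times the mean in the 3 injured samples, where counting alone would give 1. For Klf6, 32.5 to 42.2% of injured cells held 2 to 4 UMIs, compared with 3.92 to 10.7% of uninjured cells. Between 13.8 and 17.5% of injured cells held 5 to 9 Klf7 UMIs, compared with 1.19 to 9.52% of uninjured cells, although the share with any Klf7 UMI overlapped.

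**Figure D4:**
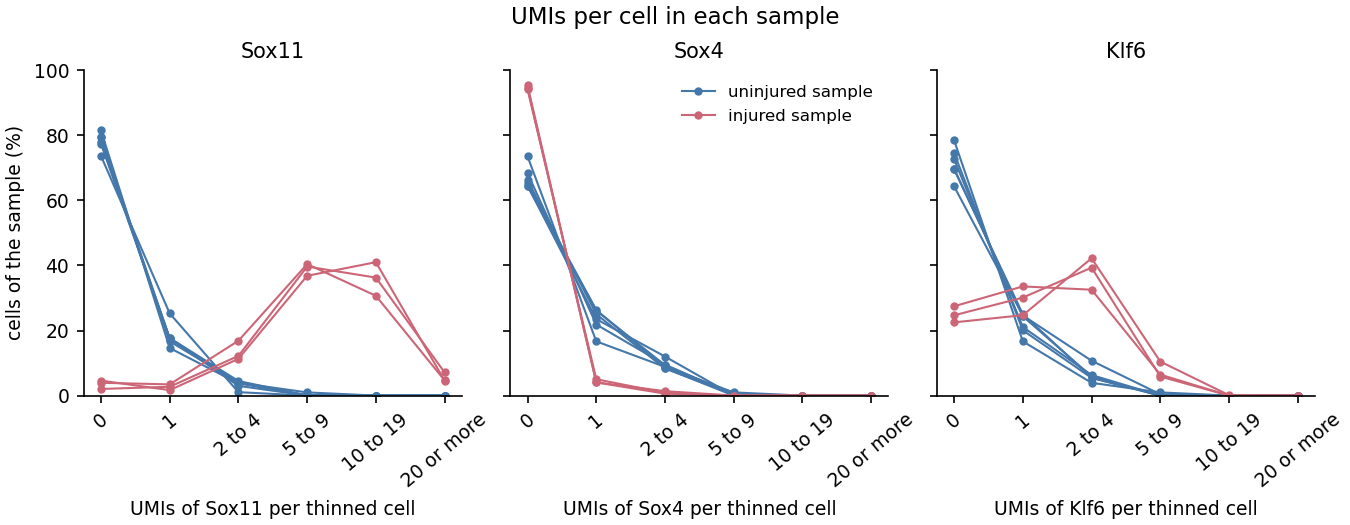
Percent of thinned cells (y axis) by number of UMIs of Sox11, Sox4 and Klf6 in the cell (x axis, bins), with 1 line a sample. For Sox11, 73.7 to 81.5% of uninjured cells are in the bin of 0 UMIs and 36.8 to 40.4% of injured cells are in the bin of 5 to 9.

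Injured cells were then split by Atf3, a stress-induced transcription factor that marks axotomised neurons, found in 86.2 to 90.4% of thinned injured and 0 to 1.50% of thinned uninjured cells. In the 3 injured samples Sox11 was at 1161, 1119 and 1060 CPM in cells with an Atf3 UMI and at 832, 692 and 550 CPM in cells without. Sox4 was at 6.16, 4.84 and 3.94 CPM in cells with Atf3 and at 30.0, 35.3 and 21.3 CPM in cells without. The cells without Atf3 thus held less Sox11 and more Sox4 in each sample, though the Sox4 levels rest on 8, 7, 10 and 9 UMIs in 31, 23, 68 and 41 cells of the 4 libraries. Klf6 was at 184, 209 and 245 CPM with Atf3 and at 139, 141 and 160 CPM without. Klf9 was at 208, 188 and 242 CPM with Atf3 and at 187, 197 and 188 CPM without, in no common order. Klf7 was at 289, 260 and 338 CPM with and 251, 252 and 303 CPM without. Klf13 was at 49.3, 46.8 and 59.0 CPM with Atf3 and at 37.5, 85.8 and 51.9 CPM without, in no common order, on 10 to 26 UMIs in cells without Atf3 of each library. Sox12 was at 9.24, 9.68 and 8.54 CPM with Atf3 and at 7.49, 15.1 and 16.2 CPM without, in no common order. Its levels without Atf3 rest on 2, 3, 9 and 6 UMIs in the 4 libraries. Klf4 and Klf10 had at most 2 UMIs in cells without Atf3 of a library and are not read. Rbpms, a marker of RGCs, was at 274, 263 and 317 CPM in cells with Atf3 and 416, 359 and 507 CPM without. The sum of the RGC markers went the other way, at 3956, 4077 and 5138 CPM with and 3563, 3742 and 4068 CPM without Atf3. The amacrine marker Gad1 was at 16.7, 28.0 and 4.80 CPM with and 48.7, 0 and 20.1 CPM without, and the amacrine sum at 289, 320.5 and 282 CPM with and 341, 172 and 190 CPM without. C1ql2, the most abundant amacrine marker, was at 202, 210 and 239 CPM with and 169, 106 and 85.5 CPM without Atf3. The amacrine sum without C1ql2 was at 86.7, 111 and 42.9 CPM with and 172, 65.6 and 104 CPM without, so it was higher in cells without Atf3 in injured 1 and injured 3/4. Cells without Atf3 thus held RGC markers, and the part of amacrine markers in the split was not tested.

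Part of the Atf3-negative cells were Opn4 cells. Opn4 encodes melanopsin, the photopigment of intrinsically photosensitive RGCs, and cells with at least 2 thinned Opn4 UMIs, a split chosen after seeing the data, numbered 50 in uninjured and 47 in injured libraries. Of the 163 injured cells without Atf3, 41 were Opn4 cells, and 6 further Opn4 cells held Atf3. Injured Opn4 cells had Sox11 at 133, 51.6 and 37.1 CPM in the 3 samples, against 1150, 1118 and 1030 CPM in the other injured cells. Their Sox4 was at 49.8, 38.7 and 32.2 CPM, against 7.66, 6.56 and 5.21 CPM in the others. Uninjured Opn4 cells held 19.4 to 58.1 CPM of Sox4, which overlaps the injured values. Their Sox11 was at 0 to 38.7 CPM, with a median of 12.5 against 51.6 CPM in injured Opn4 cells. That overlap rests on 1 uninjured library with 6 Opn4 cells, at 38.7 CPM against 37.1 CPM in injured 3/4, so no order is read from it. Klf6 was at 265, 168 and 119 CPM in injured and 38.7 to 135.5 CPM in uninjured Opn4 cells. The uninjured values rest on 6 UMIs of Sox11, 18 of Sox4 and 31 of Klf6, the injured values on 22, 15 and 62. Of the 47 injured cells, 31 come from injured 3 and 4, which share cells. In injured 1, 1 of the 7 Opn4 cells held Atf3. Leaving it out took the Atf3-positive cells of injured 1 from 2638 to 2633 Sox11 UMIs and from 418 to 412 Klf6 UMIs. Leaving out the other 6 took its Atf3-negative cells from 222 to 219 and from 37 to 27. Most Sox11 UMIs behind the 133 CPM of injured 1 thus came from 1 cell.

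With Opn4 cells removed, the Atf3 split in the injured samples kept its order for Sox11 and Sox4 and narrowed for both, with few UMIs of Sox4. Sox11 was then at 1163, 1129 and 1064 CPM in cells with Atf3 and at 1017, 973 and 741 CPM in cells without. Sox4 was at 6.18, 4.88 and 3.80 CPM with Atf3 and at 23.2, 29.0 and 18.9 CPM without. In cells without Atf3 these Sox4 levels rest on 5, 4, 4 and 7 UMIs in 25, 16, 53 and 28 cells of the 4 libraries, and injured 3 and 4 differ, at 8.77 and 29.0 CPM. Klf6 was at 182, 210 and 246 CPM with Atf3 and at 125, 116 and 175 CPM without. These levels are a description over 3 samples, and no test was run on them.

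**Figure D5:**
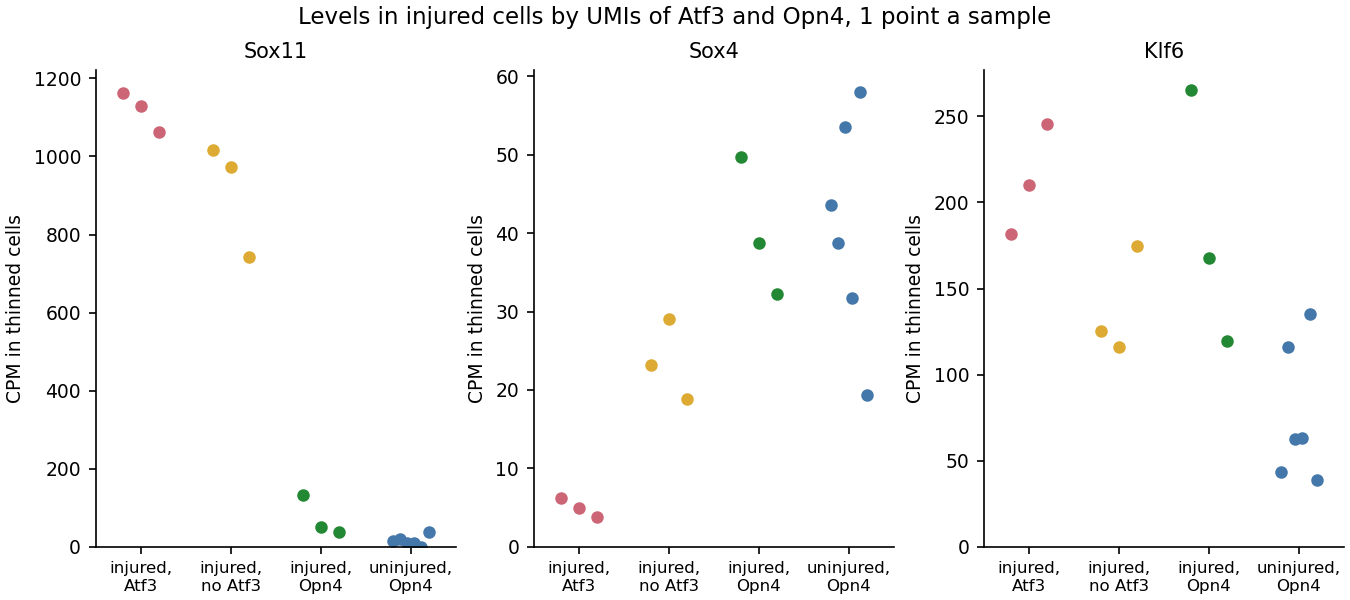
CPM of Sox11, Sox4 and Klf6 (y axis) in thinned cells: injured cells with Atf3 and without Atf3, both without Opn4 cells, injured Opn4 cells and uninjured Opn4 cells, with 1 point a sample. Sox11 is at 37.1 to 133 CPM in injured Opn4 cells and at 741 to 1163 CPM in the other injured cells.

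Cells split by markers of other RGC types were less set apart in their Sox11 level. Foxp2, a marker of the F-RGC types, labelled 292 uninjured and 102 injured cells with at least 2 UMIs. Sox11 was at 1045, 1015 and 1054 CPM in injured Foxp2 cells and at 1135, 1083 and 985 CPM in the other injured cells, in no common order. Cartpt, a peptide gene of direction-selective RGCs, labelled 659 of 1649 thinned uninjured but 37 of 1313 thinned injured cells. Whether the labelled cells were all of that type was not tested, so they are not read as 1 RGC type. Sox11 was at 798, 855 and 487 CPM in the injured Cartpt cells, against 1135, 1089 and 1002 CPM in the rest. Their Atf3 was lower too, at 247, 296 and 164 CPM against 739, 783 and 710 CPM. Whether Cartpt-positive cells were lost or ceased to make Cartpt cannot be told apart.

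Klf9 calls for a look at mCherry, since the study used viral vectors with an mCherry reporter for knockdown of Klf9 and as a control in other experiments. In injured 3/4, Klf9 was at 236 CPM in thinned cells with an mCherry UMI and at 225 CPM in cells without. All levels without mCherry in injured 3/4 rest on 54 cells of injured 3 and 37 of injured 4, libraries that share barcodes. In injured 1 and 2, it was at 232 and 200 CPM in the 26 and 32 cells with mCherry and at 203 and 187 CPM in the others. Klf9 was therefore not lower in mCherry cells of any of the 3 injured samples, on 52 and 55 Klf9 UMIs in those of injured 1 and 2. Within injured 3 it was at 237 CPM with and 183 CPM without mCherry, but within injured 4 at 235 CPM with and 267 CPM without. Whether Klf9 was knocked down in these cells was not tested. Sox11 was at 929 CPM with and 1457 CPM without mCherry in injured 3/4, while in injured 1 and 2 it was at 1354 and 1216 CPM with and at 1104 and 1057 CPM without, the opposite order. Klf7 was at 301 CPM with and 584 CPM without mCherry in injured 3/4, and again in the opposite order in injured 1 and 2, at 295 and 305 CPM with and 284 and 252 CPM without. RGC markers summed to 5268 CPM in cells with and 2892 CPM in cells without mCherry in injured 3/4. The part of this difference in the Sox11, Klf7 and Klf9 levels was not tested.

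The rest of the Klf and Sox families adds context to the members. Counts for these and the following lists stand beside 21.3% of all tested genes called higher and 22.7% called lower. Of 11 other Klf genes that were deposited, 6 had enough counts, and 3 rose (Klf12, Klf3 and Klf5) and none fell, with a median log2 fold change of 0.65 beside -0.03 for all tested genes. Klf5 was at 0.674 to 1.68 CPM in uninjured samples and passed the filter on low counts through the injured samples alone, and without it 2 of 5 rose (median 0.61). Klf12 was at 111.7 to 186.3 CPM in uninjured and 330, 300.0 and 280 CPM in injured samples (log2 fold change 1.10, SE 0.19; edgeR adjusted p = 0.000563). Of 9 Sp genes, relatives of Klf factors that bind the same GC-rich elements, 4 were tested and 2 rose, Sp1 by 0.76 (SE 0.18) and Sp2 by 0.74 (SE 0.16), with a list median of 0.47. Of 16 other Sox genes 3 were tested, 2 rose and 1 fell (median 2.55), or 1 and 1 of 2 (median 0.52) without Sox9, which is described below. Sox5, a SoxD factor of postmitotic neurons, was at 30.4 to 66.3 CPM in uninjured and 315, 292 and 245 CPM in injured samples (log2 fold change 2.55, SE 0.27; edgeR adjusted p = 1.36e-05). Sox6, the other SoxD factor tested, fell by 1.51 (SE 0.38; edgeR adjusted p = 0.00739), with samples of the conditions overlapping. Sox9, known from glia, was at 0 to 0.602 CPM in uninjured and at 13.5, 13.7 and 11.8 CPM in injured samples, on 24 UMIs in all uninjured cells, so it too passed the filter through the injured samples and could hardly have been called lower. In cells with 3 to 5% Malat1 UMIs, Klf3 (0.17), Sp1 (0.48), Sp2 (0.33) and Sox6 (-0.74) did not pass. Klf3 was also lost with similar libraries summed (edgeR adjusted p = 0.0651), and Sp1 and Sox6 with these as a random block (edgeR adjusted p = 0.0623 and 0.0756).

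Known targets and partners of the members moved in both directions. Of 10 reported targets of Sox11 and Sox4, 9 were tested, 6 rose and 2 fell (median 1.10), or 5 and 2 of 8 (median 1.00) without Sprr1a, which passed the filter through the injured samples alone. The growth-cone protein Gap43 was at 319.5 to 493 CPM in uninjured and 2649, 2726 and 2358 CPM in injured samples, a rise of 2.70 (SE 0.17; edgeR adjusted p = 3.38e-07). Map2, a dendritic microtubule protein, rose by 2.07 (SE 0.17), while Pou4f2, the RGC identity factor, fell by 2.64 (SE 0.22). Sprr1a, a regeneration-associated gene, had 2 UMIs in the 6 uninjured samples and 13999 in the 3 injured samples. Injured 3/4 was counted as the average of its libraries. Relative to the TMM-scaled totals of each condition, the ratio was 21462 (95% counting interval 5940 to 177233). Of 5 POU factors that pair with SoxC proteins 3 were tested (median 0.28): Pou3f1 rose by 3.28 (SE 0.15), Pou3f2 fell by 1.49 (SE 0.25), and Pou2f1 was not called at 0.28 (SE 0.17). Among 5 reported targets and partners of Klf7 and Klf6, 3 rose and 2 were not called, but 1 further gene of that list is left out, so nothing is read from the count. Besides Gap43, the cell-cycle inhibitor Cdkn1a rose by 5.21 (SE 0.18) and Stat3, a partner of Klf6 in axon regeneration, by 1.76 (SE 0.14).

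Of 12 regeneration-associated transcription factors, 10 rose and 1 fell (median 2.00), or 8 and 1 of 10 (median 1.64) without Atf3 and Cebpd, which passed the filter through the injured samples alone. Jun, a partner in AP-1, was at 43.8 to 93.9 CPM in uninjured and 544, 532 and 455 CPM in injured samples and rose by 2.99 (SE 0.24; edgeR adjusted p = 1.78e-06), and Myc rose by 3.66 (SE 0.42). Atf3 went from 0 to 2.51 CPM up to 802, 835 and 761 CPM. Fos fell by 2.39 (SE 0.57; edgeR adjusted p = 0.00491), a direction that turned to 0.16 (edgeR adjusted p = 0.744) in cells with 3 to 5% Malat1 UMIs, the highest of 30 settings, where edgeR and the other tools gave adjusted p from 9.8e-06. Uninjured 5 and 6, nearly lost in that setting, were the libraries with the most Fos, 192 and 137 CPM against 32.4 to 67.7 CPM in the other uninjured samples. Of 16 immediate early and dissociation stress genes 15 were tested, with 5 higher and 3 lower (median 0.75), or 4 and 3 of 12 (median 0.44) without the 3 that passed the filter through 1 condition alone (Atf3, Arc and Hspa1b). Among the lower genes was Nr4a1, which fell by 2.27 (SE 0.26) and did not pass in those cells (-0.68).

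Genes linked to Klf9, Klf13 and Klf10 by regulation, and corepressors of Klf factors, were counted as well. Of 3 JNK kinases, of which Mapk10 binds Klf9, Mapk8 rose by 0.60 (SE 0.12), and Mapk9 and Mapk10 fell by 0.66 (SE 0.11) and 0.90 (SE 0.16), for a median of -0.66. Of 12 thyroid and glucocorticoid hormone receptors and targets, a set that bears on Klf9, 1 rose and 4 fell (median -0.38), close to the share of all tested genes that were called. Among these, Per1 (0.79, SE 0.22) lost its call in thinned cells, with 3 to 5% Malat1, with similar libraries summed, without injured 3 and 4, and in injured 1 and 2 alone without mCherry cells (log2 fold changes 0.48 to 0.85; edgeR adjusted p 0.054 to 0.149). The receptor Thrb (-0.76, SE 0.26) lost its call without uninjured 1, 2, 3 or 4, without injured 2, and without injured 3 and 4. It was also lost without Xist cells, with similar libraries summed, and in injured 1 and 2 alone without mCherry cells (edgeR adjusted p 0.0556 to 0.188 over these 9 settings). Its log2 fold change there was -0.86 to -0.54, and it was no smaller in size without Xist cells (-0.80), with similar libraries summed (-0.86) and without injured 2 (-0.82). The thyroid hormone receptor Thra was at 338 to 537 CPM in uninjured and 177, 174 and 179 CPM in injured samples, lower by a log2 fold change of -1.27 (SE 0.17; edgeR adjusted p = 8.78e-05), and its partner Rxrg fell by 2.48 (SE 0.27). Of 18 cAMP signalling genes tested of 19, a set that bears on Klf13, 5 rose and 4 fell (median -0.18), again near the share of all tested genes, with the phosphodiesterase Pde4a falling by 2.56 (SE 0.20) and the repressor Crem rising by 2.03 (SE 0.11). Of 10 TGF-beta signalling genes, a set that bears on Klf10, 4 rose and none fell (median 0.51), or 4 of 8 (median 0.41) without Tgfb3 and Smad3, which passed the filter through the injured samples alone and were not called. The ligand Tgfb2 rose by 3.62 (SE 0.31), while Klf10 itself fell. Smad4 (0.62, SE 0.20) lost its call with library totals alone, with 3 to 5% Malat1, with similar libraries summed, without injured 1, without injured 3 and 4, and in injured 1 and 2 alone without mCherry cells (edgeR adjusted p 0.0644 to 0.411). Its log2 fold change was 0.23 with 3 to 5% Malat1 and 0.54 to 0.63 in the other 5 settings. Of 9 corepressors of Klf factors, 1 rose and 1 fell (median 0.06), Sap30 by 1.62 (SE 0.37) and Hdac1, which fell by 0.67 (SE 0.13) and did not pass in cells with 3 to 5% Malat1 UMIs (-0.34).

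The genes most like each member over the 9 samples, by Pearson r of log2 CPM with a pseudocount of 1, mostly follow the split between the conditions and are given as a description. For Sox11 they were Slc7a1 (r = 0.998), Tbc1d20 (0.998) and Ddit3 (0.997), a stress-induced transcription factor. For Sox4 they were Adora1 (0.997), Pax6 (0.996) and Prkcz (0.996), for Klf6 Shc2 (0.997), H13 (0.997) and Rap1b (0.995), and for Klf7 Clcn6 (0.996), Ext2 (0.995) and Map2 (0.991). For Klf9 they were Lrrc58 (0.991), Spop (0.988) and Qki (0.988), and for Klf10 Smpd3 (0.994), Pdcd4 (0.991) and Stk32c (0.991). Lower values were found for Sox12 with Dlg4 (0.971), Eml2 (0.970) and Clstn3 (0.959), for Klf13 with Uba3 (0.971), Sat1 (0.952) and Akirin1 (0.952), and for Klf4 with Rps18 (0.968), Rps24 (0.964) and Prmt7 (0.959).

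Markers of other retinal cells were checked because SoxC and Klf genes are not confined to RGCs. RGC markers were plentiful, with 1 of 7 genes higher and 4 lower. They summed to 5728 to 8165 CPM in uninjured and 4273 to 5427 CPM in injured samples. Sncg had the highest mean in uninjured samples (2185 CPM) and Tubb3 in injured samples (1262 CPM). Amacrine markers summed to 59.8 to 207 CPM in uninjured and 272 to 337 CPM in injured samples over 7 genes (2 higher, none lower), without overlap. C1ql2, the most abundant of them in injured samples, rose from 7.48 to 28.7 CPM up to 183 to 215 CPM. Its mean made a larger step (17.6 to 196 CPM) than that of the whole sum (141 to 300.3 CPM). Slc6a9 also rose without overlap, from 1.40 to 12.7 CPM up to 18.9 to 21.8 CPM, while Gad1, Gad2, Slc32a1, Tfap2a and Tfap2b overlapped between conditions. Whether amacrine cells were more frequent after crush, and their part in the members' changes, was not tested. Mueller glia markers summed to 117.5 to 184 and 109 to 140 CPM over 8 genes (3 higher, 2 lower). Dkk3 led in uninjured and Glul in injured samples, and Sox2 was at 0 in injured samples. Within this list Dkk3 fell, from 66.7 to 111.5 CPM down to 10.7 to 19.4 CPM, while Glul rose from 39.6 to 47.5 up to 74.9 to 93.9 CPM. Rlbp1 rose from 0 to 5.34 up to 8.86 to 11.2 CPM beside Sox9, so the sum hides changes in both directions, and the part of Mueller glia in the Sox9 rise was not tested. Bipolar markers summed to 153.5 to 236 and 129 to 191 CPM over 6 genes (none higher, 1 lower; Prkca the most abundant), with Grm6 at 0 in injured samples. Horizontal markers summed to 139 to 287 and 59.9 to 70.5 CPM over 4 genes (3 lower), led by Septin4, with Lhx1 at 0 in both conditions.

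The remaining marker lists were low. Microglia and macrophage markers summed to 3.08 to 13.4 CPM in uninjured and 5.51 to 17.96 CPM in injured samples over 9 genes (1 higher; Cx3cr1 the most abundant), with C1qa, C1qc and Tyrobp at 0 in injured samples. Astrocyte markers summed to 5.33 to 27.9 and 6.13 to 7.19 CPM over 5 genes (none called), led by S100b with Igf2 at 0, and oligodendrocyte markers to 9.93 to 16.9 and 16.7 to 20.5 CPM over 5 genes (none called), led by Mbp with Olig2 and Sox10 at 0. Rod markers summed to 2.24 to 20.6 and 1.23 to 17.7 CPM over 5 genes (none called), led by Sag. Cone markers summed to 0.906 to 2.43 and 0.350 to 0.674 CPM over 6 genes (none tested), led by Opn1mw in the uninjured mean. Opn1sw and Gnat2 were at 0 in injured samples. Endothelial markers summed to 4.41 to 11.2 and 4.16 to 7.19 CPM over 6 genes (1 lower; Tek the most abundant, Cldn5 and Cdh5 at 0 in injured samples) and pericyte markers to 0 to 3.68 and 0 to 0.537 CPM over 5 genes (none tested; Rgs5 the most abundant, Kcnj8 at 0). Sox11 at 986 CPM or more in injured samples stood above the sum of each of these lists other than that of RGCs. Levels of different genes do not give shares of cells, so the part of other cells in the Sox11 level was not tested by this. With cells that carry at least 3 markers of another cell class left out, no member that was tested changed direction.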

How the data were processed

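UMI counts per gene and cell from 10 libraries are raw counts that the authors made with Cell Ranger 7.0.1 on mm39 (per the labels) and deposited after selecting RGCs. Each library's cells were added up per gene (Python 3.11.15, numpy 2.4.6, scipy 1.17.1, pandas 2.3.3), with injured 3 and 4 averaged with rounding. The test of injury used edgeR 4.0.16 under R 4.3.3 (filterByExpr, TMM factors, robust quasi-likelihood fit, condition as the only term, Benjamini-Hochberg over 14234 genes, threshold 0.05). It was tested on simulated data of independent samples with few changed genes. Such data do not cover libraries that resemble each other or a share of called genes as large as here. SEs come from the log2 fold change and F. CPM use TMM-scaled totals. Total UMIs were 2839693 to 23180399 per uninjured and 4698799 to 8860536 per injured library. The limits of the paper on genes, mitochondrial share and UMIs removed no cell, the lowest cell holding 821 genes. No doublet caller was run, so the maximum of UMIs was the only guard against doublets. Shares of cells used cells thinned to 8610 UMIs (the 10th percentile, seed 20240), with the deposited depth and 5000 UMIs as alternatives.

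Alternatives covered scaling (library totals, upper quartile, DESeq2 1.42.0, limma 3.58.1 voom with quality weights), filters on genes and cells, 10 separate libraries, blocks of libraries, and each sample left out. The settings on 10 separate libraries and on libraries 1 to 4 count injured 3 and 4 as separate samples. Members and gene lists were chosen with earlier results of these data known. Named genes are the 9 members, up to 4 genes of each list with the largest absolute log2 fold change past the threshold at an average log2 CPM of at least 3, each tested gene of a list with 3 or fewer tested, the 3 genes most like each member (average log2 CPM at least 5), and the most abundant marker of each cell type. Other genes named in counts, and the Opn4, Foxp2 and Cartpt splits (at least 2 UMIs), were chosen after their values were seen, as was Sag as background. The sums of amacrine, rod and bipolar markers leave out 1 listed gene each, and the list of Klf7 and Klf6 targets and partners also lacks 1. Gene models and promoters come from GENCODE on GRCm39, the same assembly as mm39. RefSeq start sites were placed by exact sequence match for 8 of 9 members, with no entry for Klf10. Protein sequences were not given, so the zinc fingers and Sox domains were not compared. Figures were drawn with matplotlib 3.10.9.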

Additional observations from a re-analysis of the deposited data

Results flagged for a closer look

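A single sample stood apart from the other 5 of its group in 4 of 55 groups looked at, where chance gives about 1 in 20 groups (2.8 of 55). Sox12 in uninjured 6 was at 14.3 CPM, farther above the other uninjured samples than they were spread. Klf6 in uninjured 5 was at 53.5 CPM and also stood apart from the other uninjured samples. The remaining pair are Atf3 in uninjured 4, at 2.51 CPM, and Sprr1a in uninjured 5, at 0.184 CPM. UMIs of mCherry, which no label mentions and the comparison does not use, were found in 7.99% of the cells of injured 1, 15.0% of injured 2, 86.0% of injured 3 and 84.3% of injured 4, and in 0% of uninjured cells.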

How the results depend on the processing

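Across 30 alternatives (25 for Klf4) no member's log2 fold change changed sign, and Sox11 (4.65 to 5.41), Sox4 (-2.81 to -1.84), Klf4 (1.84 to 2.77), Klf6 (2.10 to 2.41) and Klf7 (0.57 to 0.73) passed in each setting that tested them. Genes called ranged from 3528 to 8307 and members from 5 to 9, the lowest of both, 3528 and 5, in cells with 3 to 5% Malat1 UMIs, which keeps 495 uninjured and 260 injured cells, 7 and 8 of them in uninjured 5 and 6. With similar libraries summed 6 members passed. With 1 sample left out at a time these counts were 4961 to 6420 and 7 to 8. Sox12 lost its call in thinned cells (-0.37), with 3 to 5% Malat1 (-0.26), without Xist cells (-0.65), with similar libraries summed (-0.50) or as a random block (-0.45), with replicate number as a block (-0.43), without injured 1 (-0.48, edgeR adjusted p = 0.105) and without injured 2 (-0.45, edgeR adjusted p = 0.107), and kept it with each other sample left out. Klf9 lost its call with similar libraries summed (0.63) and Klf10 with 3 to 5% Malat1 (-0.76). Klf13 gained one with limma-voom weights (0.21) and in libraries 1 to 4 without (0.24) and with (0.25) replicate number as a block. The settings on libraries 1 to 4 count injured 3 and 4, which share cells, as separate samples. Libraries of the same number were not paired, since the correlations of their deviations were -0.0553, 0.0155, -0.0229 and -0.0486. Klf4 was not tested, for lack of counts, with 3 to 5% Malat1, a minimum of 10 counts in each sample, no Xist cells, no cells with other markers, or thinned cells. Differences in the share of cells with a UMI, in percentage points, moved from the thinned to the deposited depth to 50.6 for Sox11, -52.2 for Sox4, -18.2 for Sox12, 25.9 for Klf6 and -21.5 for Klf10, and turned to -5.94 for Klf7, -5.06 for Klf9 and -19.0 for Klf13. At 5000 UMIs they were 80.5 for Sox11, -15.4 for Sox4, 1.09 for Klf4, 41.3 for Klf6, 0.0346 for Klf7 and -3.21 for Klf10. Of 1103 comparisons for the 37 other named genes 1073 kept their call and direction, 29 lost the call and 1 reversed, Fos with 3 to 5% Malat1 (0.16). Where a call or direction changed, the cause was not tested. Depth limits Klf4, which lacked the counts to be tested in 5 settings.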
